A study of Mus musculus with 53 samples.

Results

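Single mouse embryonic stem cells sorted for the surface antigen SSEA1 were compared with a pool of cells sorted for the same antigen. The members were the 45 columns of the deposited single-cell expression table that are named for a cell, and the pool was the 1 other sample column; together they are 46 of the 53 samples of the study. The study concerns the T-box transcription factor Tbx3 and its control of Dppa3 in pluripotent cells. Cells and pool were both wild type R1, a mouse embryonic stem cell line, grown in serum and LIF with no feeder layer, and both were sorted as SSEA1+ and DAPI-. Their cDNA was made on the Fluidigm C1 system and turned into libraries with Nextera XT, with about 24 libraries mixed together and read as single reads of 100 bp. The sources used here do not say how the pool was made or how many cells it holds. The labels name no separate cultures, so the 45 cells stand for 1 sample and the pool for 1 sample, and the differences between them carry no replicate check and no p-value.

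SSEA1 is a carbohydrate antigen on the surface of undifferentiated mouse embryonic stem cells, and DAPI enters cells with a broken membrane, so the sort keeps intact cells that carry the antigen. Pluripotency in these cells rests on a network of transcription factors around Pou5f1 (Oct4), Sox2 and Nanog, joined by Sall4 and by factors of the naive state such as Klf4, Esrrb, Tbx3 and Zfp42. In medium with serum and LIF, several of the naive factors are known to differ between single cells. A pool reads the average RNA of many cells, while a single-cell library starts from the few mRNA copies of most genes that a cell holds.

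Values are FPKM, reads per length of transcript and per library total, scaled by the authors across all libraries of the table, so levels can be compared between genes per length. A gene was counted in a cell at 1 FPKM or more. By that rule a cell held 1642 to 3295 of the 23235 genes (mean 2363 ± 476, SD over cells), against 11678 genes in the pool. The rank order of genes in a cell followed that of the pool with a Spearman correlation between 0.374 and 0.529, given as a description over the genes of the table. The files hold no read counts. From the steps between low values, 1 read was worth 0.607 to 6.90 times what it was worth in the median cell, so the shallowest cells carry the least precise values. The cell columns fall into 2 runs in the table, 23 cells and then 22 cells. Every cell of the first run had more genes above 0 (4279 to 5241) than any cell of the second (2139 to 3782), and 1 read was worth 0.607 to 1.18 in the first run and 0.661 to 6.90 in the second, on the same relative scale. The correlation of a cell with the pool was 0.49 to 0.529 in the first run and 0.374 to 0.483 in the second, with no overlap. No label ties these runs to a chip or a sequencing lane. Values for each run are therefore given beside the results that they touch. Values between 0 and 1 FPKM also went with the run. In the first run 47.1% of values under 1 FPKM were above 0 for genes that reached 100 FPKM in another cell of that run, against 3.28% for genes that reached it only in a cell of the second run. In the second run the shares were 13.3% and 2.34%. The part of such low values in the results was not tested. The limit of 1 FPKM leaves values under it out of the counts of cells, but not low values just above it. Among the genes compared below, 206 were in every cell at 1 FPKM and 145 at 5 FPKM.

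The markers given with the experiment were at 1 FPKM or more in every cell with the exception of Sox2. Zfp42 (Rex1), a zinc finger protein used as a mark of the naive state, ran from 4.52 FPKM in the lowest cell through a median of 518 to 1723 in the highest cell, with a mean of 639 ± 462 (SD over 45 cells), against 502 FPKM in the pool. Its pool value lay inside the spread of the cells, and 40 of the 45 cells had 100 FPKM or more. Sall4, a zinc finger factor that acts with Pou5f1, ran from 1023 through 3241 to 7950 FPKM in cells, against 72.4 in the pool, so the lowest cell stood far above the pool. Actb, the cytoplasmic actin of all cells, ran from 7819 through 20666 to 31070 FPKM in cells, against 1108 in the pool, and it too showed no overlap. An exon of Sall4 overlaps a gene named Gm14261 in the annotation, and reads of the overlap cannot be told apart in values counted without strand. Dppa5a, an RNA-binding protein of pluripotent cells, averaged 2047 ± 1091 FPKM in cells and 1800 in the pool and was in all 45 cells.

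**Figure D1:**
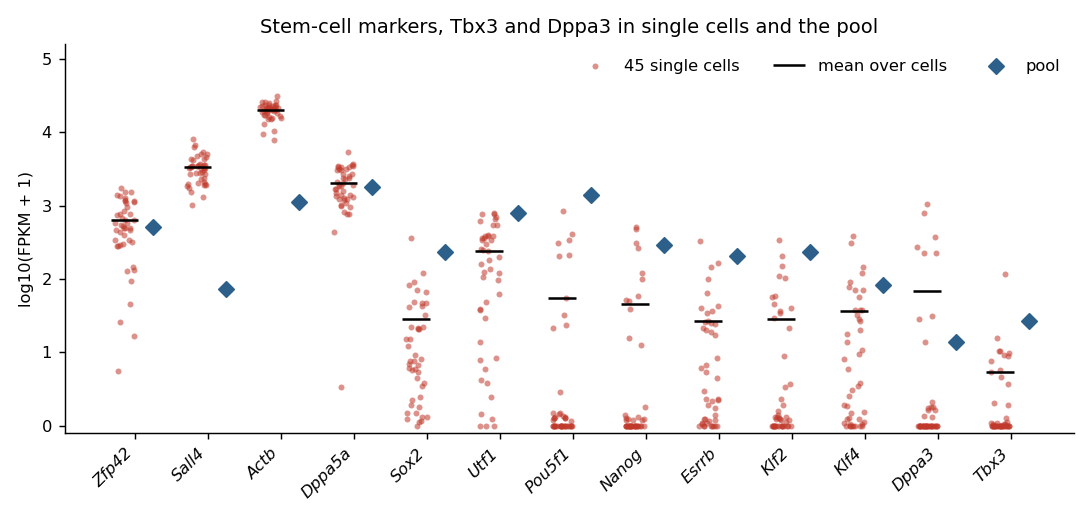
Levels of 11 stem cell markers and of Dppa3 and Tbx3, as log10(FPKM + 1) on the vertical axis, in each of 45 single cells (points, with a bar at the mean over cells) and in the pool (diamond). Sall4 and Actb lie above the pool in every cell, Zfp42 and Dppa5a spread around it, and most cells lie near 0 for Pou5f1, Nanog and Tbx3.

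The core factors were read in fewer cells. Sox2, the HMG-box partner of Pou5f1, was at 1 FPKM or more in 35 cells (77.8%, exact Clopper-Pearson 95% interval 62.9 to 88.8%, covering counting error only), with a median of 6.70 FPKM and a highest cell at 357, against 233 in the pool. Pou5f1, the POU-domain factor on which pluripotency depends, was in 11 cells (24.4%, interval 12.9 to 39.5%), with a mean of 54.4 FPKM and a highest cell at 848, against 1370 in the pool. No cell reached the pool's level of Pou5f1. In the pool, fewer cells with a gene and less of its RNA per cell cannot be told apart. Nanog, a homeodomain factor, was in 12 cells (26.7%, interval 14.6 to 41.9%), with a mean of 44.4 FPKM and a highest cell at 507, against 287 in the pool. Of these 3 factors 7 cells had none, 21 had 1, 14 had 2 and 3 had all of them, while Zfp42 and Sall4 were both in all 45 cells. Utf1, a chromatin-bound factor of pluripotent cells, was in 40 cells with a mean of 238 FPKM, against 787 in the pool. Esrrb, an orphan nuclear receptor of the naive state, was in 27 cells with a mean of 25.7, against 202 in the pool. Klf2 was in 17 cells (mean 27.4 FPKM) and Klf4 in 26 cells (mean 35.7 FPKM), against 229 and 80.9 FPKM in the pool; both are Krüppel-like factors of the same network.

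The defining markers of other cell types were at or near 0 in most cells. None of the 8 endoderm markers (Gata4, Gata6, Sox17, Sox7, Foxa2, Dab2, Cubn, Pdgfra) and none of the 5 genes of the 2-cell-like state was above 0 in any cell, and their sums were 2.15 and 1.36 FPKM in the pool. A wider endoderm list with basement membrane genes had 16 members, 7 of them tested. All 16 summed to between 0 and 359.6 FPKM in cells, with a median of 1.22, against 269.5 in the pool. Among the tested members Sparc, a secreted matrix protein, was in 11 cells. Of the 4 mesoderm markers 2 were at 0 in every cell, T and Mesp1, and the list's sum ran from 0 to 339 FPKM in cells, against 3.07 in the pool. Mixl1, a homeobox gene of the primitive streak, was at 1 FPKM or more in 3 cells, with 339 FPKM in cell 13 and 11.0 in the next. Krt7, the only detected one of 3 trophectoderm markers, was in 1 cell at 354 FPKM, against 0.895 in the pool. Of the 3 neuroectoderm markers Tubb3 was in 17 cells, Sox1 in 1 and Pax6 in none, and their sum reached 746 FPKM in the highest cell, against 123 in the pool. Of 7 fibroblast and 5 blood markers 1 each was detected, Thy1 and H2-Ab1, in 1 cell each, and the sums were at most 9.36 and 1.12 FPKM in a cell, against 9.18 and 7.55 in the pool. A wider fibroblast list had 12 members, 5 of them tested. All 12 summed to between 0 and 563.6 FPKM in cells, with a median of 1.85, against 292.4 in the pool. The tested members include Fn1, a matrix protein found in 23 cells, and Vim, an intermediate filament found in 9. Longer lists of other types also reached higher sums in single cells. A list of 13 blood and B cell genes reached 137 FPKM, against 9.61 in the pool. One of 14 genes of the 2-cell stage reached 252, against 37.7, and the median cell had 0 for both. For 9 genes of trophectoderm and simple epithelium the highest sum was 518 and the median 0.0859, against 75.5. Lists of 11 primitive streak and mesoderm genes and of 8 neuroectoderm genes reached 339 and 746. The part of other cell types in the results was not tested. The 11 stem cell markers summed to between 14481 and 39736 FPKM in cells, with a median of 26399, against 6670 in the pool, and Actb, a cytoskeletal actin, made up most of the median in cells. Without Actb the other 10 summed to between 3567 and 14365 FPKM in cells, with a median of 6297, against 5563 in the pool. Without Actb and Sall4 the other 9 summed to between 968 and 6416 FPKM in cells, with a median of 2877, against 5490 in the pool.

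Tbx3 was at 1 FPKM or more in 13 cells (28.9%, interval 16.4 to 44.3%), with a median of 0, a highest cell at 117 FPKM and the next at 14.5, against 25.8 in the pool. Its mean of 4.45 FPKM was lower than the pool, with a log2 difference of -2.30, and without the highest cell the mean was 1.89. Dppa3 (Stella), a maternal factor that protects DNA methylation in the early embryo, was in 10 cells (22.2%, interval 11.2 to 37.1%), with a highest cell at 1036 FPKM and the next at 794, against 12.8 in the pool. Its mean of 66.7 FPKM gave a log2 difference of 2.29 over the pool, while the median cell was at 0, so the direction depends on a few cells. Tbx3 and Dppa3 were together in 2 cells, cell 29 and cell 32. In cell 29 both lay just above the limit of 1 FPKM, with Tbx3 at 1.05 and Dppa3 at 1.09. In cell 32 Tbx3 was at 4.75 FPKM and Dppa3 at 13.04. A further 2 places in the genome resemble the Dppa3 transcript over most of its length, and the sources used here do not say how reads were shared with them.

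Over all genes listed, 10363 were at 1 FPKM or more in at least 1 cell. Of these 9576 were at that level in the pool too, 787 were in a cell and under 1 FPKM in the pool, and 2102 more were in the pool and in no cell. The comparison was limited to 11997 genes at 1 FPKM or more in the mean of the cells or in the pool. Of these 206 (1.72%) were in every cell and 2102 (17.5%) in no cell, and 4376 were in 1 to 4 cells. The number of cells that held a gene went up with its level in the pool. It was 1 cell in the median for genes at 2 to 5 FPKM in the pool, 4 cells at 10 to 20, 15 at 50 to 100, 26 at 100 to 200 and 37 at 200 to 500. Of the 105 genes at 500 FPKM or more in the pool 63 were in every cell. Genes under 1 FPKM in the pool passed the filter through the cells alone, so their shares are a description of that choice.

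**Figure D2:**
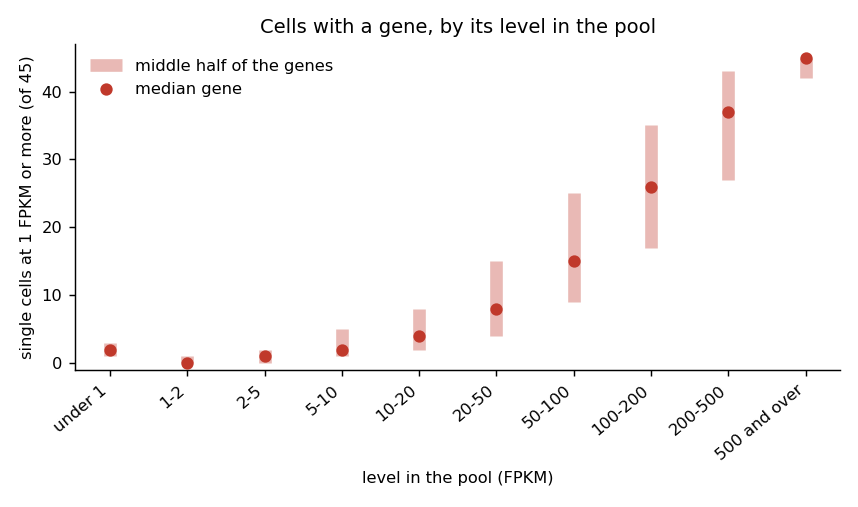
Number of single cells, of 45, that held a gene at 1 FPKM or more (vertical axis) for genes grouped by their FPKM in the pool (horizontal axis); points are the median gene and bars the middle 50% of genes. The median number is 8 cells at 20 to 50 FPKM and 45 cells at 500 FPKM or more.

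Some genes departed far from that relation. Arpc3, a subunit of the Arp2/3 actin-nucleating complex, was at 0 in all 45 cells, against 162 FPKM in the pool, and the exact interval for the share of cell libraries that read it reaches 7.87%. The interval limits how often a library reads the gene and not the share of cells that hold its RNA. A cell library read 2337 genes in the median, against 11678 in the pool. Bst2, a membrane protein that holds budding viruses, was likewise at 0 in every cell, against 124 FPKM in the pool. Psap, the precursor of the lysosomal saposins, had a highest cell of 0.611 FPKM, against 87 in the pool. Elac2, Isoc2a, Vat1, Prcc, Amt and Traf4 also reached 1 FPKM in no cell, against 53.2 to 68.3 FPKM in the pool. The reverse was rarer. Lsm7, a subunit of the ring that binds the ends of U6 and of decaying mRNAs, was in 43 cells with a mean of 19.8 FPKM (lowest 0, median 13.3, highest 63.7), against 0 in the pool. Tmod1, a cap of actin filaments, was in 37 cells with a mean of 74.8 FPKM, against 1.64e-07 in the pool; an exon of Tmod1 overlaps Tstd2. Sumo2 and Cycs, a ubiquitin-like modifier and cytochrome c, were in 14 cells each, against 0.157 and 0.216 FPKM in the pool.

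Per gene the difference was taken as log2((mean over cells + 1)/(pool + 1)), with a pseudocount of 1 FPKM that understates the change of low genes. Of the 11997 genes 1556 (13%) were 2-fold or more higher in cells and 6680 (55.7%) were 2-fold or more lower, and 3761 were neither, with a median of -1.18. The genes higher in cells held 53.2% of all FPKM in the mean of the cells and 10.2% in the pool, and the genes lower in cells held 8.73% and 47.2%. FPKM scaling makes each library's values depend on its own total. Actb, Set and Ptges3 took 8.03% of the FPKM in the mean of the cells and 0.26% in the pool. The part of this scaling in the counts was not tested. With differences centred on the genes that reached 5 FPKM on both sides, a shift of -0.27, the counts were 1946 higher (16.2%) and 5690 lower (47.4%). At the limit of 2-fold Taf12 (45.8 FPKM in cells, 22.4 in the pool) lay just inside and Pecr just outside on the higher side, with Luc7l2 just inside and Erlin1 just outside on the lower side. Across genes the mean of the cells and the pool had a Pearson correlation of 0.685 of log2(FPKM + 1). The 2 runs of cells had 0.787 between their means, and 0.664 for the first and 0.655 for the second with the pool. Of the higher genes 790 (50.8%) were higher by 2-fold in both runs, and of the lower genes 5700 (85.3%) were lower in both. Means over cells often rested on a single cell. Of 9895 tested genes seen in a cell 5119 had over 50% of their summed level in 1 cell, and without each gene's highest cell 813 genes in place of 1556 were higher. Taking the median over cells in place of the mean left 275 higher and 10968 lower.

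**Figure D3:**
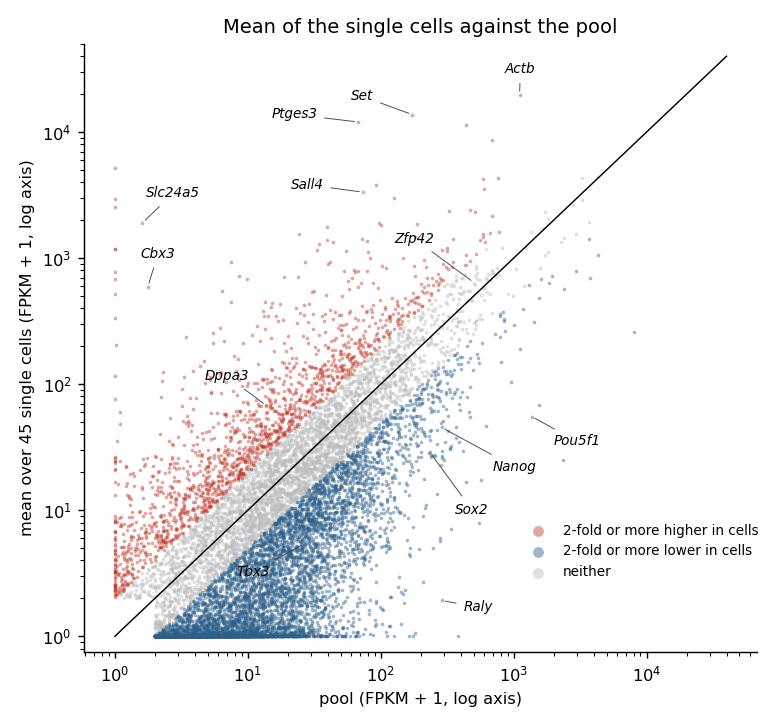
Mean over 45 single cells (vertical axis) against the pool (horizontal axis) for 11997 genes, both as FPKM + 1 on log axes, with the line of equal values. Red points (1556) were 2-fold or more higher in cells and blue points (6680) 2-fold or more lower; Actb, Set, Ptges3 and Sall4 stand above the line, Pou5f1 and Raly below it.

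The largest positive differences were mostly in genes read in nearly all cells. Slc24a5, a cation exchanger of melanosomes, ran from 2.45 through 1898 to 4614 FPKM in cells, against 0.615 in the pool. Its exons overlap those of Myef2, an RNA-binding protein read from the opposite strand, which ran from 1.99 through 1294 to 2973 FPKM in cells, against 33.6 in the pool, so the reads of the pair cannot be told apart. Ptges3 (p23), a co-chaperone of Hsp90, ran from 6900 through 12214 to 18188 FPKM in cells, against 66.5 in the pool, with no overlap and a log2 difference of 7.48. Set, an inhibitor of protein phosphatase 2A and of histone acetylation, ran from 9747 through 13376 to 19780 FPKM in cells, against 172 in the pool, with a log2 difference of 6.31. Both differences were nearly equal in the runs of cells, at 7.51 and 7.45 for Ptges3 and at 6.28 and 6.35 for Set.

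Cbx3, also among the largest positive differences, is the heterochromatin protein HP1 gamma and ran from 194 through 596 to 912 FPKM in cells, against 0.773 in the pool. Hmgb1, a DNA-bending protein, ran from 3.50 through 881 to 2710 FPKM in cells, against 6.45 in the pool. H2afz, the histone variant H2A.Z, ran from 13 through 232 to 956 FPKM in cells, against 4.46 in the pool, so its lowest cell stood above the pool. Hist1h4d, a histone H4 gene, was in 29 cells with a mean of 235 FPKM, against 2.44 in the pool. These 4 genes have 7, 5, 3 and 10 further copies in the genome in the order given, where a copy is a place with at least 90% identity over at least 50% of the transcript, and their levels are uncertain to that extent. Golt1b, a vesicle transport protein, averaged 1566 ± 1123 FPKM in cells, against 23.4 in the pool, with no copy and no overlapping gene. Klhl9, an adaptor of a Cul3 ubiquitin ligase used in mitosis, ran from 16.5 through 376 to 1536 FPKM in cells, against 6.53 in the pool, and also had neither. Fas, the death receptor, entered the same 15 genes through a single cell at 2685 FPKM, while the next cell had 0.221 and the pool 0.0965. Of the 15 largest positive differences 9 were in every cell, 6 genes had copies, 4 overlapped another gene's exons, and 14 passed 2-fold in both runs.

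The largest negative differences were in genes that nearly all cells lacked. Raly, an hnRNP protein, was in 2 cells at 31.1 and 9.18 FPKM, against 287 in the pool, with a log2 difference of -7.22. Ldb1, a LIM-domain cofactor, was in 2 cells with a highest cell of 5.12 FPKM, against 141 in the pool. Arf5, a small GTPase of the Golgi, had a highest cell of 1.70 FPKM, against 109 in the pool. Aldh2, the mitochondrial aldehyde dehydrogenase, was in 3 cells with a highest cell of 3.33 FPKM, against 115 in the pool. Prrc2a, a large proline-rich protein, was in 6 cells with a highest cell of 15.2 FPKM, against 148 in the pool. All 15 largest negative differences passed 2-fold in both runs of cells, 4 of these genes were in no cell, and of the 13 that matched the annotation none had a copy and 4, among them Raly and Ldb1, overlapped another gene's exons.

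The base composition of a transcript moved with its difference. Over 11541 genes matched to a transcript of the same build (NCBIM37, called mm9 by the authors) cut into 10 classes of equal size by GC content, the median log2 difference was 0.26 in the lowest class and -2.24 in the highest, and each class was lower than the one before it. In the lowest class 31.2% of genes were 2-fold higher in cells and 25.7% lower, and in the highest class 2.78% were higher and 85.1% lower. Among genes at 50 to 200 FPKM in the pool, where levels are alike, the medians were 0.42 and -3.16, and a gene was in 33 cells in the lowest class and in 7.5 in the highest, in the median. The median GC content was 45.9% in the genes higher in cells and 53.2% in the genes lower, against 50.8% in all tested. Across genes the Spearman correlation of the difference was -0.422 with GC content and -0.156 with transcript length. The shortest and longest of 10 classes by length had medians of -0.10 and -1.40. Genes with no copy had a median of -1.27, those with 1 copy -0.32, those with 2 to 4 copies 0.02, those with 5 to 9 copies -0.07 and those with 10 or more -0.90. With the median of each GC class set to 0, 3013 genes were higher and 3014 lower. The part of GC content, length and copies in the differences of single genes was not tested.

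**Figure D4:**
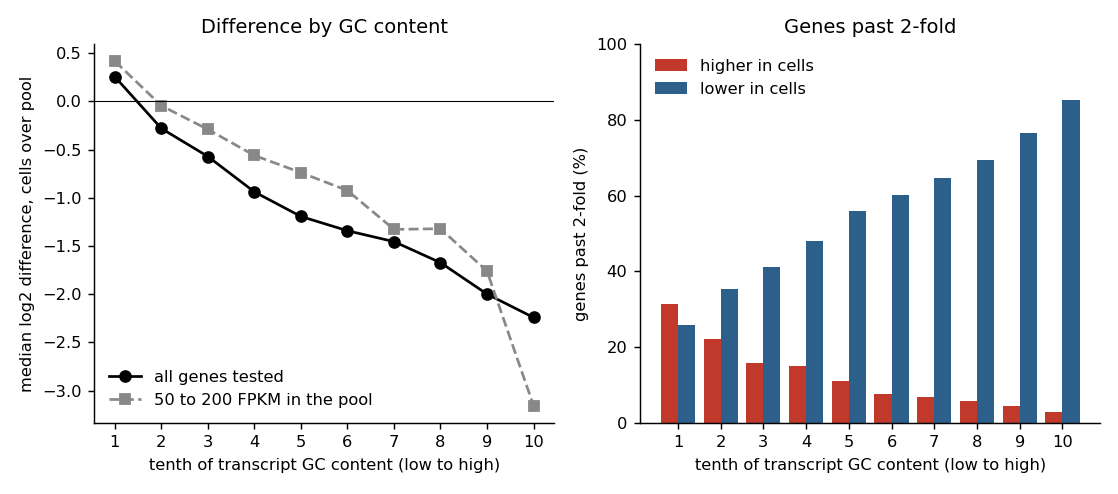
Left, median log2 difference of cells over pool (vertical axis) in 10 equal classes of genes by GC content of the transcript (horizontal axis, low to high), for all tested genes (circles) and for those at 50 to 200 FPKM in the pool (squares). Right, share of genes 2-fold higher (red) and lower (blue) in cells in each class, from 31.2% and 25.7% in the lowest to 2.78% and 85.1% in the highest.

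The following sequences were chosen to show what such compositions look like, and support nothing on their own. Stretches of coding sequence of 120 bases follow for 4 genes, each the window whose composition is nearest to that of its whole transcript, 5′ to 3′ on the coding strand of NCBIM37, with G and C in capitals. Klhl9 (chr4:88364196-88368369, minus strand, coding bases 202 to 321) and Zfp42 (chr8:44380422-44392363, minus strand, coding bases 166 to 285) were read in all 45 cells. Pou5f1 (chr17:35642982-35647721, plus strand, coding bases 331 to 450) was in 11 cells and Prrc2a (chr17:35286021-35301842, minus strand, coding bases 217 to 336) in 6.
Klhl9: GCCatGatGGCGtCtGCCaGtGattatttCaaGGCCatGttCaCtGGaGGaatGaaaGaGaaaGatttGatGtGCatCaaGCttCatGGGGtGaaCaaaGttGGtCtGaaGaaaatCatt
Zfp42: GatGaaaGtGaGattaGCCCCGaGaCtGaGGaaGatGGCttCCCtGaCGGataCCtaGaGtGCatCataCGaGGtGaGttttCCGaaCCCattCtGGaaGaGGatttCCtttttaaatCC
Pou5f1: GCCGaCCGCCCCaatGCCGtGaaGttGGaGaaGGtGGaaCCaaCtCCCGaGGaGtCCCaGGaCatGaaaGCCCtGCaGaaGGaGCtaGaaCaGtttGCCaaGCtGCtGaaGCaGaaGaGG
Prrc2a: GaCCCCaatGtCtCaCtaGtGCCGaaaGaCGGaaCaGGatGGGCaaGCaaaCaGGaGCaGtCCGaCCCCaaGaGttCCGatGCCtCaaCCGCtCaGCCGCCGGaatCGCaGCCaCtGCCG
The windows hold 42.5%, 46.7%, 57.5% and 60.8% G and C in that order, and the whole coding sequences 44.7%, 52.8%, 58.1% and 60.6%. Sall4 goes against the trend over all genes, with a transcript of 53.8% G and C and a log2 difference of 5.51.

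Genes were grouped by 43 lists of function, of which 42 had at least 3 tested members, and each list's counts are read against the 13% higher and 55.7% lower of all tested genes. Only 8 lists had a median difference above 0, and 24 had a median above the -1.18 of all genes. With each GC class set to 0, which brings the median of all genes to about 0, 23 lists had a median above 0. The parts of mitochondria stood highest among the lists of over 10 protein-coding genes. Of 80 genes listed for subunits of the respiratory chain 26 (32.5%) were 2-fold higher in cells and 10 (12.5%) lower, with a median of 0.495 and a median of 37.5 cells per gene. The list also holds members that are not subunits, such as Cycs and Cox4nb. Ndufa5, an accessory subunit of complex I, ran from 0 through 337 to 1450 FPKM in cells, against 107 in the pool. Ndufv2, in the complex I module that takes electrons from NADH, averaged 344 ± 404 FPKM in cells, against 85.7 in the pool. Of 76 mitochondrial ribosomal proteins 16 were higher and 12 lower, with a median of 0.214; Mrpl1 averaged 126 ± 209 FPKM in cells, against 19.8 in the pool, and Mrps30 averaged 1.39, against 66.7. Of 47 genes for proteasome subunits, assembly factors and regulators 8 were higher and 9 lower, with a median of 0.16. Psma5, of the core ring, was in 40 cells with a mean of 133 FPKM, against 31.8 in the pool, and Psmd3, of the lid, was in 12 with a mean of 12.5, against 264. With each GC class set to 0 the medians of the 3 lists were 1.72, 1.495 and 1.10. Without each gene's highest cell they were 0.271, -0.131 and -0.197, and respiratory chain subunits were then the only list with a median above 0. In the first run of cells the proteasome median was -0.096.

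Cytosolic ribosomal protein genes were detected in nearly every cell. Of 84 cytosolic ribosomal protein genes 40 were in all 45 cells and the median gene was in 44, yet 9 were higher and 26 lower in cells. Their median of -0.60 lay 0.583 above that of all genes and was 0.639 with each GC class set to 0. Of the 83 with a matched transcript 58 have copies in the genome, against 7.95% of all tested genes with sequence. Their levels and numbers of cells are uncertain to that extent. All 86 listed genes, tested or not, summed to between 21612 and 57311 FPKM in cells, with a median of 27756, against 46372 in the pool. Rps2, of the small subunit, was in 44 cells with a mean of 45.2 FPKM, against 621 in the pool, but it has 59 further copies in the genome. All 8 subunits of the chaperonin CCT, which folds actin and tubulin, lay within 2-fold of the pool, with 40.5 cells per gene in the median. The CCT median of -0.31 lay 0.872 above that of all genes and was 0.446 with each GC class set to 0. The 62 genes of the translation factor list were in fewer cells, 31 in the median. That list also holds regulators such as the kinases Eif2ak1 and Eef2k and the Argonaute genes Eif2c1 and Eif2c2. Eef2, the factor that moves the ribosome along, averaged 67.6 ± 79.4 FPKM in cells, against 1548 in the pool, and was in 42 cells.

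Pluripotency lists differed in their counts. Of 10 core pluripotency genes 2 were higher, Sall4 and Dppa4, and 4 lower. Their median of -0.34 lay 0.839 above that of all genes, and with each GC class set to 0 it was 0.229. Dppa4, a chromatin-bound SAP-domain protein, was in 33 cells with a mean of 220 FPKM, against 88.7 in the pool. Of 17 naive genes 1 was higher, Dppa3, and 8 lower, with 19 cells per gene in the median. The naive median of -0.77 lay 0.417 above that of all genes and was 0.428 with each GC class set to 0. The 1 higher gene is 5.88% of the naive list, against 13% of all tested genes, and the difference of Dppa3 turned to -3.788 with the median over cells. Of 10 formative and primed genes 8 were lower and none higher. Their median of -1.62 lay 0.44 below that of all genes and was -0.273 with each GC class set to 0. Otx2, a homeobox factor of that state, was in 6 cells, with 744 FPKM in the highest and 23.6 in the next, against 28.1 in the pool.

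Genes of LIF and Stat3 signalling were in 7 cells in the median, Wnt and Nodal genes in 4.5 and FGF and ERK genes in 13. Map kinase cascade genes were in 3, against 4 over all tested genes. Of 11 genes of LIF and Stat3 signalling 7 were lower and 1 higher, with a median of -2.73. Lifr, the receptor subunit for LIF, was in 23 cells with a mean of 63.7 FPKM, against 14.3 in the pool. Socs3, the feedback inhibitor that Stat3 induces, was in 2 cells with a mean of 4.28 FPKM, against 110 in the pool. Of 18 Wnt and Nodal genes 13 were lower and 2 higher, with a median of -1.47. The 2 were Gsk3b, the kinase that marks beta-catenin for breakdown, and Tcf7l2, which carries beta-catenin to DNA. Gsk3b ran from 0.239 through 141 to 531 FPKM in cells, against 6.94 in the pool, and Tcf7l2 was in 27 cells with a mean of 50.3, against 2.28. The ligand Nodal was in 3 cells with a mean of 0.519 FPKM, against 33.2 in the pool, and its inhibitor Lefty1 in 2 cells with a mean of 1.71, against 65.3. Of 19 FGF and ERK genes 4 were higher and 9 lower. Spry2, an inhibitor of the pathway, averaged 794 ± 501 FPKM in cells, against 52.2 in the pool, and was in 44 cells. Etv4, an ETS factor at the end of the pathway, was in 2 cells with a mean of 0.35 FPKM, against 89.0 in the pool. Of 37 Map kinase cascade genes 28 were lower and 2 higher, with a median of -1.76. Of 12 p53 targets 9 were lower and none higher, with a median of -2.45.

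Chromatin and imprinting lists held single genes far on the higher side. Of 12 DNA methylation genes 7 were lower and 2 higher, with a median of -1.43. Tet2, which oxidises methylcytosine, was in 44 cells with a mean of 131 ± 141 FPKM, against 24.8 in the pool. Dnmt1, which maintains methylation, was in 9 cells with a mean of 18.7 FPKM, against 103 in the pool. Of 16 imprinted genes 10 were lower and 2 higher, with a median of -1.44. Impact, an inhibitor of the kinase Gcn2, was in 42 cells with a mean of 929 ± 617 FPKM, against 26.0 in the pool. Peg10, a retrotransposon-derived gene, was in 5 cells with a mean of 0.635 FPKM, against 102 in the pool. Of 41 histone genes 15 were higher and 22 lower, with a median of -1.04, and 24 of the list have copies. The list, called core histones below, also holds linker histones such as H1f0 and Hist1h1c.

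Small nucleolar, nuclear and micro RNAs were the other extreme. Of 628 listed, 48 passed the filter, in part through the cells alone, and 27 of these were higher and 16 lower, with a median of 1.35 that turned to -7.43 when the median over cells was taken. All 628 listed took between 0 and 24.3% of the FPKM in a cell, with a median of 6.88%, against 5.77% in the pool. A small RNA was the highest gene of all in 19 cells. Snora75, an H/ACA RNA of the nucleolus, was in 17 cells with a highest cell at 73042 FPKM, against 0 in the pool. Since FPKM divides by length, a read on so short a gene counts for much, and libraries were made from polyA RNA. Mir703 stood in 32 cells with a median of 2095 and a highest cell of 21566 FPKM, against 4224 in the pool. Its mature sequence is shown because it occurs in another transcript of high level, with the seed (bases 2 to 8) in capitals, from RefSeq on GRCm38.p6 (chr5:98475616-98475636, minus strand).
mmu-miR-703: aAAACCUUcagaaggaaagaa
Eef1a1: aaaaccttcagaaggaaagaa
The second line gives bases 1636 to 1656 of the 1794-base Eef1a1 transcript on NCBIM37, after its last coding base at 1509, and is the same with T for U. Eef1a1, the factor that brings tRNAs to the ribosome, was in all 45 cells at 457 to 3150 FPKM, against 2929 in the pool. The longest run that the Mir703 hairpin shares with the transcript is 47 bases, against reads of 100 bp, and the NCBIM37 annotation lists a gene named mmu-mir-703 over an exon of Eef1a1. Over cells the 2 levels had a Spearman correlation of 0.067, given as a description over 45 libraries, and the part of shared reads in these values was not tested.

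Variation between cells was set against the mean, since the ratio of SD to mean (CV) is higher for low genes. For 4803 genes at a mean of 5 FPKM or more and in at least 5 cells, the residual is log2 of CV squared minus its running median over 200 genes of like mean. Positive values mark genes that varied more than others of the same level. The most variable genes at a mean of 10 FPKM or more had much of their level in few cells, and the ranking did not hold under other settings: of the 15 genes 0 remained among the first 15 by SD of log2(FPKM + 1), 2 without each gene's highest cell and 1 in the first run of cells. Their values are a description of these libraries. Vps28, a subunit of the ESCRT-I sorting complex, had a residual of 2.81, a median of 1.58 FPKM, a highest cell at 4916 and the next at 1322, with a mean of 244, against 73.2 in the pool. Gpank1 had 2107 FPKM in its highest cell and 71 in the next, and without that cell its residual was -0.95. Psmg3, an assembly factor of the proteasome, had 2340 FPKM in its highest cell and 564 in the next. Dmap1, a partner of Dnmt1, had 1799 FPKM in its highest cell and 645 in the next and was in 5 cells. Kif22, a kinesin that pushes chromosomes in mitosis, was in 18 cells with 2894 FPKM in the highest and 1078 in the next. Over the 15 most variable genes the highest cell held 44.9 to 99.2% of the summed level, and for 14 of the genes that cell belongs to the second run of columns. Cell 2 was the highest for 5 of the 15 genes and cell 1 for 4; the depth of cell 2 was 1.33 and that of cell 1 was 0.23 times that of the median cell. The part of depth in this ranking was not tested.

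**Figure D5:**
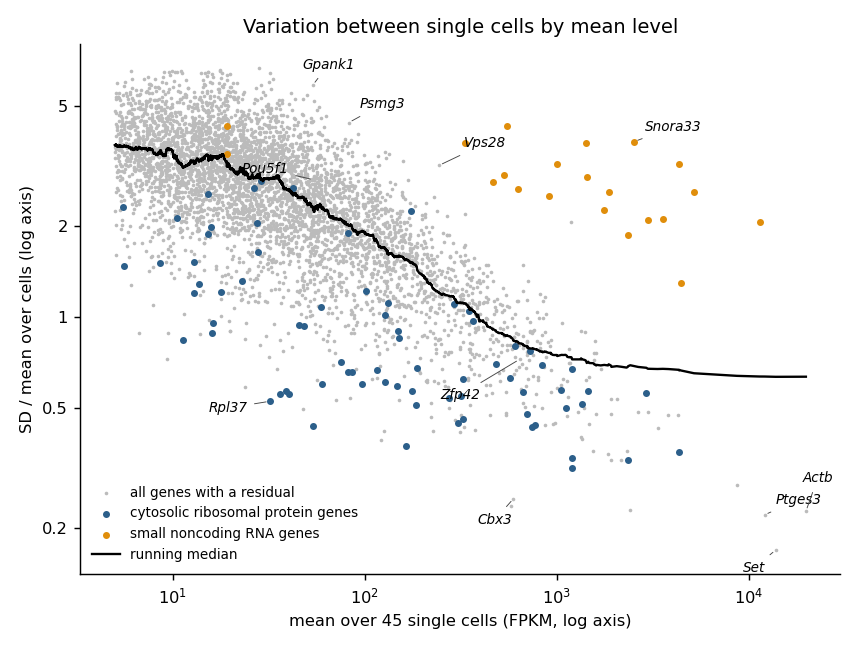
Ratio of SD to mean over 45 single cells (vertical axis, log scale) against the mean in FPKM (horizontal axis, log scale) for 4803 genes, with the running median as a line. Cytosolic ribosomal protein genes (blue) lie mostly below the line, small noncoding RNAs (orange) above it, and Vps28, Gpank1 and Psmg3 are among the most variable genes at their level.

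The least variable genes at their level were led by the ribosome. Of the 15 with the lowest residuals 8 encode cytosolic ribosomal proteins. Among these 15 genes 8 overlapped another gene's exons and 3 had copies, against 23.6% and 7.95% of tested genes. By SD of log2(FPKM + 1) 1 of the 15 remained among the lowest 15, while 8 and 9 remained in the first and second run of cells. Rpl37 ran from 5.94 through 28.2 to 94.8 FPKM in cells, with a residual of -4.89, against 19.8 in the pool. Rps28 ran from 1.92 through 52.8 to 115 FPKM, with a residual of -4.79, against 82.6 in the pool. Upf1, the helicase of nonsense-mediated decay, ran from 5.97 through 49.3 to 121 FPKM, against 64 in the pool, and Kdm6b, a histone H3 lysine 27 demethylase, averaged 35.1 ± 23.6, against 15.4. Birc6, a giant inhibitor of apoptosis, averaged 56.5 ± 34.8 FPKM, against 20.3 in the pool, with a transcript of 16212 bases. Among the highest genes Set had a CV of 0.169, Ptges3 0.221 and Cbx3 0.25.

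By list, the median residual was -1.93 for 74 cytosolic ribosomal protein genes and 3.44 for 21 small RNAs, against 0.00 over all genes. In the first run of cells these medians were -1.89 and 3.50 and in the second -1.50 and 3.30. It was -0.99 for 13 heat shock and chaperone genes and -0.78 for 36 splicing genes. Respiratory chain and mitochondrial ribosomal genes were near the middle, at 0.09 over 76 genes and 0.01 over 73. Core pluripotency genes had -0.16 over 10 genes and naive genes -0.14 over 14. Within the naive list Tcl1, a coactivator of Akt, had 1.36, with 16 cells, 1860 FPKM in the highest and 622 in the next, against 70.2 in the pool, and Dppa3 had 1.03. Pou5f1 had 0.71, Nanog 0.12 and Zfp42 -0.35, so at their levels Pou5f1 varied more than the running median and Zfp42 less. G1/S genes had -0.20 over 19 genes and G2/M genes -0.35 over 22. Gins2, of the replicative helicase, had 1.18, with 1554 FPKM in the highest cell and 1049 in the next, and Aurkb, the kinase of the chromosomal passenger complex, had 1.3, with 1002 and 319. The median residual was 0.23 in the shortest of 5 length classes and -0.55 in the longest. It was -0.32 for genes with copies, against 0.04 for genes without. Copies were found for 58 of 83 cytosolic ribosomal protein genes, and their part in the low residuals of that list was not tested. Between the runs of cells the residuals of 2831 genes had a Spearman correlation of 0.602.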

How the data were processed

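RNA was measured in 45 single cells and 1 pool. The deposited values are FPKM, which the authors made with TopHat and Cuffnorm on mm9, per the submitters' processing notes; versions, strand use and filters are not given in the sources used here. Scaling sets values relative to other libraries and genes, and reads shared by copies or overlapping genes are divided in an unstated way. Per gene the share of cells at 1 FPKM, mean, SD, pool value, log2((mean + 1)/(pool + 1)) and residual variability were computed (Python 3.11.15, pandas 2.3.3, numpy 2.4.6, scipy 1.17.1). The differences and residuals were also computed on simulated cells drawn around the pool's levels. The simulation had no GC trend, copies, runs of cells or loss of genes beyond counting noise. It checks the arithmetic and does not bear on the calls in these data. Transcripts came from the NCBIM37 annotation; copies were found with minimap2 2.31 (at least 50% of the transcript at 90% identity), and exon overlaps counted from 50 bases. Intervals are exact Clopper-Pearson at 95% and cover counting error only. With 1 sample a group there is no test.

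The members and gene lists were chosen with earlier results of these data known. Named genes were the stated markers with Tbx3 and Dppa3; the 15 largest differences each way at 5 FPKM or more; up to 4 members of each list by difference and by variability; the 15 highest and 15 lowest residuals at a mean of 10 FPKM; and the 10 genes in fewest cells at 20 FPKM or more in the pool and in most cells under 1. Predicted models and, outside the lists, small RNAs stayed out, and some genes that the rule gives are not reported here. Myef2, Snora31, Mir703, Eef1a1 and the genes at the 2-fold limit were added after their values were seen. Alternatives changed the fold, pseudocount, filter, average, cells, scaling, GC content, copies and measure of spread.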

Additional observations from a re-analysis of the deposited data

How the results depend on the processing

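Of 405 values under the alternatives for 37 named genes 397 stayed within their limits, 2 moved and 6 reversed. These genes were Zfp42, Sall4, Sox2, Actb, Pou5f1, Nanog, Tbx3 and Dppa3 and the 15 largest differences each way. Most were picked for their size in these data, so their staying past 2-fold was largely set in advance. Of 419 list values 319 stayed, 88 moved and 12 reversed. Counts of genes 2-fold higher and lower in cells (1556 and 6680) were 564 and 3576 at 4-fold, 275 and 10968 with the median over cells, 193 and 10855 with the mean of log2(FPKM + 1), and 3013 and 3014 with each GC class set to 0. Lower genes numbered 4026 with a pseudocount of 5, and higher genes 813 without each gene's highest cell and 922 without genes that have a copy or an exon overlap. Genes in every cell (206) numbered 324 above 0 FPKM and 425 in the first 23 cell columns; genes in no cell (2102) numbered 3873 in cells numbered 1 to 32, 3233 in the first 23 columns and 3656 in the last 22, where fewer cells were counted. Lists with a median above 0 (8) numbered 0 with the median over cells, 1 without the highest cell, 4 in cells 1 to 32, 5 in cells 49 to 87, 5 and 4 in the first and last columns, 23 with GC set to 0 and 5 with no filter; lists above the median of all genes (24) numbered 10 with no filter. With GC set to 0 the median turned positive for primitive streak (0.435), blood (0.119), heat shock (0.023), amino acid stress (0.079), glycolysis (0.144), DNA methylation (0.15), core histones (1.135), core pluripotency (0.229), naive genes (0.428), G1/S (0.263), G2/M (0.158), CCT (0.446), sterol synthesis (0.274), FGF and ERK (0.372), housekeeping (0.633), translation factors (0.468) and cytosolic ribosomal proteins (0.639), and negative for nuclear noncoding RNAs (-0.426, 2 genes with sequence). Setting GC to 0 also moves the median of all genes from -1.18 to about 0. These changes of sign are thus not by themselves changes against all genes. Small RNAs had a median of -7.432 with the median over cells, and none with GC set to 0, since no sequence was matched to them. Olfactory receptors, with 4 tested genes, had -0.365 with the median over cells, -0.361 without the highest cell, -0.365 in cells 1 to 32 and -0.357 in the first columns. Dppa3 had -3.788 with the median over cells and -2.203 with the mean of log2 values, and Fas had -0.133, -0.126, -0.12 and -0.133 with the median, without its highest cell, in cells 49 to 87 and in the first columns. Of the 15 most variable genes 0 remained among the 15 by SD of log2(FPKM + 1), 2 without the highest cell, 4 and 3 in cells 1 to 32 and 49 to 87, and 1 and 4 in the first and last columns; of the 15 least variable 1 remained by SD of log2 values and 8 and 9 in the first and last columns. The cause of these changes was not tested, beyond the smaller number of cells or genes in some. No paired analysis was possible because the result comes from no test and the pool is 1 sample. In the second run of columns a read was worth up to 6.90 times the median, an estimate from 37 to 92 genes a cell that share the step. Over all cells relative depth and the number of genes at 1 FPKM had a Spearman correlation of 0.046. The part of depth in the results was not tested.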

Other observations

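The largest list by tested genes held 296 Zfp genes for zinc finger proteins, of which 59 (19.9%) were 2-fold higher in cells and 168 (56.8%) lower, with a median of -1.16. Zfp367 ran from 0.126 through 97.1 to 1225 FPKM in cells, against 5.66 in the pool, and Zfp655 from 0.107 through 136 to 2659, against 14.3 in the pool. Zfp219 was in 1 cell at 1.11 FPKM, against 73 in the pool. Of 20 G1/S genes 5 were higher and 9 lower, and of 22 G2/M genes 1 was higher and 8 lower. Ccne2, a cyclin of the start of S phase, was in 16 cells with a mean of 25.6 FPKM, against 4.18 in the pool. Ube2c, the ubiquitin-conjugating enzyme of the anaphase-promoting complex, was in 43 cells with a mean of 382 FPKM, against 375 in the pool, and Cdc20, its activator, in 20 cells with a mean of 42.5, against 262 in the pool.

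In sterol synthesis 2 of 17 genes were higher and 7 lower, with a median of -0.88. Srebf2, a transcription factor of the pathway, was in 4 cells with a mean of 1.00 FPKM, against 67.5 in the pool. Of 14 immediate-early genes 8 were lower and 1 higher; Junb was in 1 cell at 82.2 FPKM and Jund in 2 with a highest cell of 2.34, against 44.7 and 60.4 in the pool. Of 24 trithorax and remodelling genes 15 were lower and 2 higher, with Chd4 in 13 cells at a mean of 6.39 FPKM, against 174 in the pool. Ddx4, a germline helicase, was in 5 cells with 854 FPKM in the highest and 438 in the next, against 10.7 in the pool. Snora31, a guide RNA of the nucleolus, had the highest single value named here, 115328 FPKM in cell 78, against 436 in the pool.

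Other lists were read as follows. Of 62 genes of the translation factor list 8 were higher and 22 lower (median -0.61), and of 40 splicing proteins 5 were higher and 15 lower (median -0.69). Of 26 genes of amino acid stress and tRNA charging 13 were lower and none higher (median -1.01), of 20 glycolysis genes 11 lower and 2 higher (median -1.15) and of 14 heat shock and chaperone genes 7 lower and 1 higher (median -1.11). Of 20 Polycomb genes 12 were lower and 1 higher (median -1.23). Of 11 BMP and Id genes 4 were lower and none higher, with a median of 0.03 that was -1.50 and -0.08 in the first and second run of cells and -1.15 without each gene's highest cell. Of 19 large cytoskeletal and motor transcripts 12 were lower and 2 higher (median -2.09), and of 198 solute carriers 125 were lower and 21 higher (median -1.42).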
